A study of Rattus norvegicus with 20 samples.

Results

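The endothelial markers described here are 10 genes that mark the cells lining blood and lymph vessels: Kdr, Flt1, Tek, Tie1, Pecam1, Cdh5, Eng, Lyve1, Vwf and Egfl7. They were taken by name, with earlier results of these data known, and every probe set annotated to one of them was used. Counts of members set beside the share of all genes are therefore a description. Of the 10 genes, 9 were measured, on 14 of 31042 probe sets, and they make up 9 of the 14217 genes tested. Cdh5, the endothelial cadherin of adherens junctions, was not analysed here.

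The liver is perfused through sinusoids, capillaries whose lining cells have open pores and clear proteins and other large molecules from the blood. Endothelial cells survive and form vessels under vascular endothelial growth factors, which act through the receptors Kdr and Flt1, and under angiopoietins, which act through Tek with its partner Tie1. Pecam1 and Cdh5 hold neighbouring cells together, Eng is a co-receptor for growth factors of the TGF-beta family, and Lyve1 is a hyaluronan receptor found on sinusoidal and lymphatic endothelium. Vwf is the clotting protein stored mainly in the endothelium of larger vessels, and Egfl7 is a small protein that endothelial cells secrete.

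Male Harlan Sprague-Dawley rats received 4 daily gavage doses of triphenyl phosphate, a flame retardant that also serves as a plasticiser, and their liver, taken on day 5, was measured on 20 Affymetrix arrays. The groups were vehicle (0 mg/kg in corn oil, 5 arrays) and 55, 110, 220, 440 and 881 mg/kg in corn oil (3 arrays each); the design text writes 441 for the 440 of the sample labels. Neither the rats' age nor a link between each array and a separate animal is given in the sources used here, so the p-values reflect only how far these samples vary, some of which may be technical. Values are log2 expression as deposited, and a gene is said to have risen or fallen where limma's adjusted p was under 0.05. The 13 measured hepatocyte markers averaged between 13.6 and 13.9 on each of the 20 arrays. Replicate 2 of 881 mg/kg stood apart, with the 3' end of the Gapdh control 5.24 higher than the 5' end, against 0.81 to 1.64 on the other 19 arrays, so results at 881 mg/kg are also given without it.

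The RefSeq promoter table (GRCr8, from 250 bases before to 50 after each start) held 7 promoters of 6 members. The promoters of Egfl7 (the first of its 2 starts), Flt1 and Kdr are shown because these members were among those that fell at 881 mg/kg; they lie at chr3:29805381-29805680, chr12:12333180-12333479 and chr14:32571813-32572112, all on the plus strand. Capitals mark GGAAG, a core of the sites bound by ETS factors, or its reverse complement CTTCC.
Egfl7: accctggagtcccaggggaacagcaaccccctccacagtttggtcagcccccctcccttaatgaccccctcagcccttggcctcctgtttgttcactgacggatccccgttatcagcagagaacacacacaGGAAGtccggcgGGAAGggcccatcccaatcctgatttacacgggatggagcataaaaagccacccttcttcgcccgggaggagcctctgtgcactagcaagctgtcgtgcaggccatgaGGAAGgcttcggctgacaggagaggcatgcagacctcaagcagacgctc
Flt1: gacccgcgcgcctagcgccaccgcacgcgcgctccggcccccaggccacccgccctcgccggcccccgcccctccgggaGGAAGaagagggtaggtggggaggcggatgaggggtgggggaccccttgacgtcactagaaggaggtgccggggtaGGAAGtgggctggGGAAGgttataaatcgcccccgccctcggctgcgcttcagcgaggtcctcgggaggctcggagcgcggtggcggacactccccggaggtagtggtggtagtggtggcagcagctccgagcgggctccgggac
Kdr: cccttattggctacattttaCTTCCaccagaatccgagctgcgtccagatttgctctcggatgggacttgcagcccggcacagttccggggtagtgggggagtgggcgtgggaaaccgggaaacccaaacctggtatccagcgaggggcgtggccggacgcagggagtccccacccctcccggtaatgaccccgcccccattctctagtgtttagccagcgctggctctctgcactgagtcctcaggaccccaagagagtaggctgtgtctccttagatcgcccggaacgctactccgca
GGAAG was found on either strand 3 times in the Egfl7 window, 3 times in that of Flt1 and 1 time in that of Kdr, and 70.1% of all 33469 promoters held at least 1. The core that KLF factors bind, CACCC, stood 1, 2 and 1 times in these windows and in 54.9% of all promoters. Neither GATAAG (bound by GATA factors, 7.05% of promoters) nor AACAAT (bound by SOX factors, 11.7%) occurred in any of the 7 windows. The other windows, those of Lyve1, Eng, Tie1 and the second Egfl7 start, held GGAAG 1, 2, 3 and 0 times. All 4 motifs were searched on both strands, and 0 of the GGAAG matches in these 7 windows overlapped another of the motifs. These matches describe letters in the windows and were not tested against the expression values.

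Kdr, Flt1, Pecam1 and Egfl7 fell at 881 mg/kg, by between 0.33 and 0.62 on the log2 scale, which are 4 of the 9 measured members against 6.73% of all genes that fell. At 440 mg/kg Kdr, Tek and Pecam1 fell, 3 of 9 against 4.28% of all genes. Along the dose steps 6 of 9 members fell, against 8.81% of all genes, and Eng, Vwf and Lyve1 were not called. Egfl7, with a modest change and little spread, was the member that kept its call at 881 mg/kg under each of the 14 alternative settings of the fit over genes. In limma's fit over probe sets without 881 mg/kg replicate 2, neither Egfl7 set was called (adjusted p = 0.0602 and 0.0651). At 881 mg/kg 8 of 11 markers of Kupffer cells and macrophages, 9 of 17 of stellate cells and fibroblasts and 2 of 13 of hepatocytes fell too. Bulk liver RNA was measured, so fewer endothelial cells, less RNA per endothelial cell and changed RNA of other cells cannot be told apart.

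**Figure D1:**
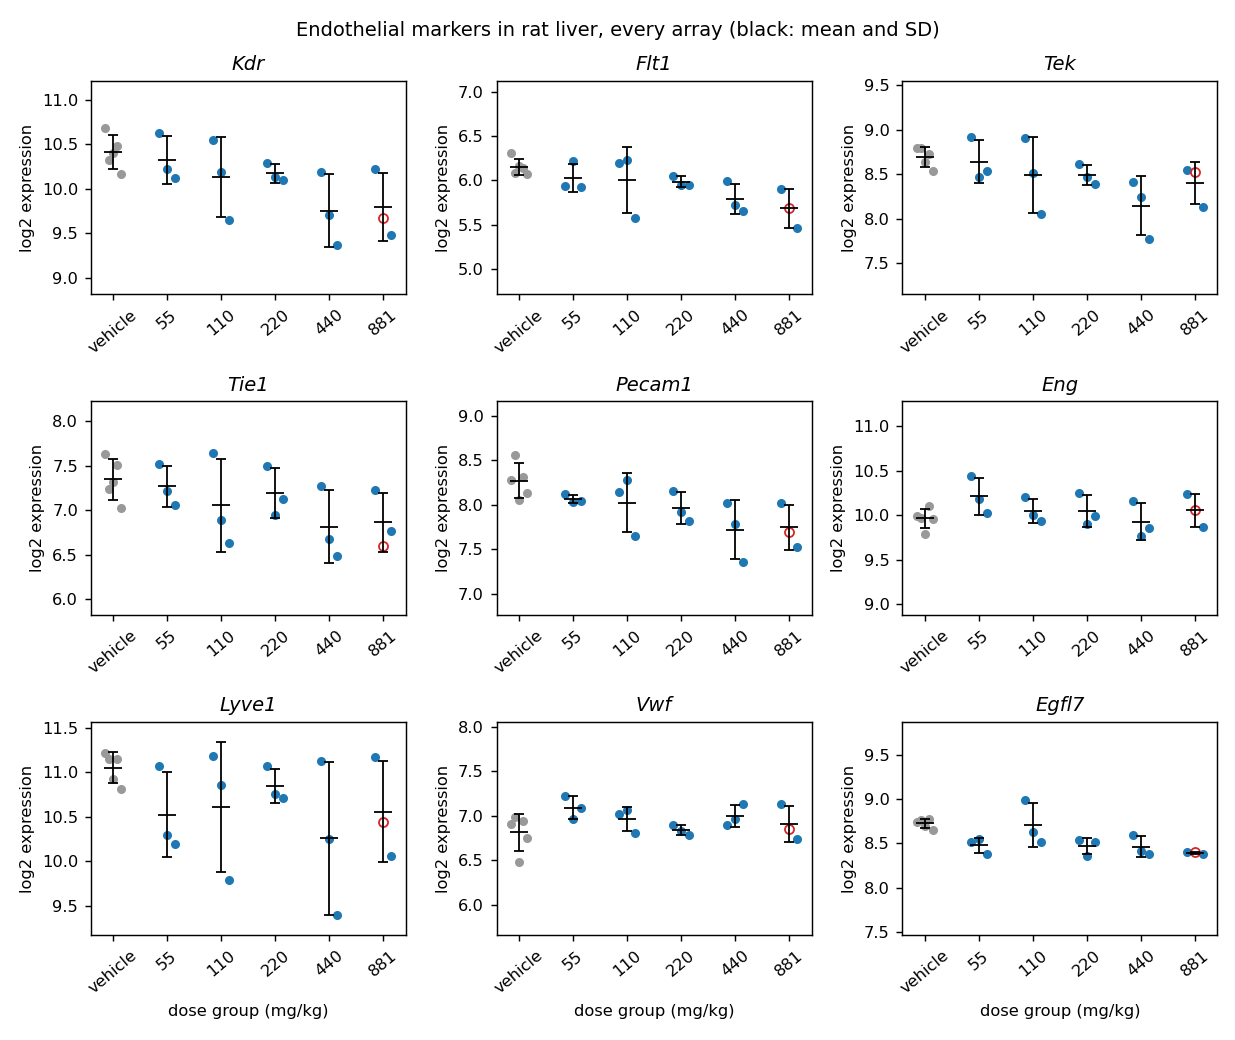
Log2 expression (vertical axis, each panel spanning the same height) of the 9 measured members on every array, by dose group in mg/kg (horizontal axis); grey points are vehicle arrays, blue points dosed arrays, the red circle is 881 mg/kg replicate 2, and black marks are the mean and SD. Egfl7 lay at 8.38 to 8.40 on the 881 mg/kg arrays and 8.66 to 8.77 on the vehicle arrays, while Lyve1 spread from 9.40 to 11.12 within 440 mg/kg.

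Of the receptors for vascular endothelial growth factors, Kdr, which carries most of the growth signal, read 10.68, 10.32, 10.41, 10.47 and 10.16 on the vehicle arrays, 10.18, 9.70 and 9.36 at 440 mg/kg and 10.22, 9.67 and 9.48 at 881 mg/kg. In both of these dosed groups 1 array lay inside the vehicle range and 2 below it. Kdr averaged 9.79 ± 0.38 at 881 mg/kg and 10.41 ± 0.19 in vehicle (SD, n = 3 and 5). It fell by 0.62 ± 0.20 at 881 mg/kg (SE, 1.53-fold lower, adjusted p = 0.0380) and by 0.66 ± 0.20 at 440 mg/kg (adjusted p = 0.0423). The call at 881 mg/kg was lost without 881 mg/kg replicate 2 (-0.56, adjusted p = 0.139), without 881 mg/kg replicate 3 (0.158) and without vehicle replicates 1, 2, 3 or 4 (0.0829, 0.0521, 0.0571 and 0.0674), and with the mean of its probe sets the change was -0.25 (0.187). The call at 440 mg/kg was lost without the same 4 vehicle arrays (0.0602 to 0.0906) and without 440 mg/kg replicates 2 or 3 (0.132 and 0.225). It was also lost with the 3' minus 5' difference of beta-actin as a covariate. With the mean of the probe sets it was lost too, and the change at 440 mg/kg was then -0.28 (0.177).

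Flt1 shares a ligand with Kdr and limits how much of it reaches Kdr. It read 6.30, 6.08, 6.16, 6.14 and 6.07 in vehicle, 5.99, 5.73 and 5.66 at 440 mg/kg and 5.90, 5.69 and 5.46 at 881 mg/kg. All arrays of both dosed groups lay below all vehicle arrays, as did the 3 arrays at 220 mg/kg (5.95 to 6.05). Its mean was 5.69 ± 0.22 at 881 mg/kg and 6.15 ± 0.093 in vehicle (SD, n = 3 and 5). Flt1 fell at 881 mg/kg by 0.46 ± 0.13 (1.38-fold lower, adjusted p = 0.0189), and at 440 mg/kg it measured -0.36 ± 0.13 (adjusted p = 0.0899). Without 881 mg/kg replicate 2 the change was -0.47 (adjusted p = 0.0579) and without replicate 3 it was -0.35 (0.0978), neither called. With the mean of its 3 probe sets the change at 881 mg/kg was -0.24 (adjusted p = 0.0361), still called.

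Tek, the angiopoietin receptor, read 8.80, 8.80, 8.64, 8.73 and 8.53 in vehicle, 8.42, 8.25 and 7.77 at 440 mg/kg and 8.55, 8.53 and 8.13 at 881 mg/kg. All 3 arrays at 440 mg/kg lay below all vehicle arrays, while at 881 mg/kg the groups overlapped. It fell at 440 mg/kg by 0.55 ± 0.17 (1.47-fold lower, adjusted p = 0.0398), from which vehicle replicates 1 to 4 or 440 mg/kg replicates 2 or 3, each left out alone, removed the call (0.0545 to 0.231). The beta-actin covariate removed it too (adjusted p = 0.0522). At 881 mg/kg Tek measured -0.30 ± 0.17 (adjusted p = 0.227). Tie1, the receptor that pairs with Tek, read 7.63, 7.24, 7.32, 7.51 and 7.03 in vehicle, 7.28, 6.68 and 6.49 at 440 mg/kg and 7.23, 6.60 and 6.77 at 881 mg/kg. In each of these dosed groups 1 array of Tie1 lay within the vehicle range. Its changes were -0.53 ± 0.22 at 440 mg/kg and -0.48 ± 0.22 at 881 mg/kg (adjusted p = 0.130 in both), and -0.35 (adjusted p = 0.406) at 881 mg/kg without replicate 2. Tie1 was called at 440 mg/kg once replicate 1 of that group was left out (-0.76, adjusted p = 0.04997).

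Pecam1, the adhesion molecule CD31 at endothelial cell contacts, read 8.28, 8.56, 8.05, 8.32 and 8.13 in vehicle, 8.03, 7.78 and 7.36 at 440 mg/kg and 8.03, 7.69 and 7.52 at 881 mg/kg. The highest array of each dosed group lay just under the lowest vehicle array, so the groups did not overlap. It averaged 7.75 ± 0.26 at 881 mg/kg and 8.27 ± 0.20 in vehicle (SD, n = 3 and 5). Pecam1 fell by 0.52 ± 0.16 at 881 mg/kg (1.44-fold lower, adjusted p = 0.0261) and by 0.55 ± 0.16 at 440 mg/kg (adjusted p = 0.0319). At 881 mg/kg the call was lost without replicate 2 (-0.50, adjusted p = 0.0920), without replicate 3 (0.115) or without vehicle replicate 2 (0.0639). At 440 mg/kg it was lost without vehicle replicates 1, 2 or 4 (0.0538, 0.0760 and 0.0619) and without 440 mg/kg replicates 2 or 3 (0.0770 and 0.204).

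Egfl7 gave the narrowest values of the 9 members. It read 8.75, 8.76, 8.70, 8.77 and 8.66 in vehicle, 8.60, 8.41 and 8.38 at 440 mg/kg and 8.40, 8.40 and 8.38 at 881 mg/kg. All arrays at 440 and 881 mg/kg lay below all vehicle arrays, and so did all at 55 mg/kg (8.38 to 8.54) and 220 mg/kg (8.36 to 8.53), while at 110 mg/kg 1 array read 8.99 and the others 8.63 and 8.51. The mean was 8.39 ± 0.013 at 881 mg/kg and 8.73 ± 0.048 in vehicle (SD, n = 3 and 5). Egfl7 fell at 881 mg/kg by 0.33 ± 0.090 (1.26-fold lower, adjusted p = 0.0135), and by 0.34 ± 0.10 without replicate 2 (adjusted p = 0.0414). At 440 mg/kg it measured -0.26 ± 0.090 (adjusted p = 0.0667). These values are those of its probe set with the higher mean. On its second set, all arrays lay below all vehicle arrays (7.80 to 8.21) at 881 mg/kg only. That set overlapped vehicle at 55 mg/kg (7.52 to 8.08), 220 mg/kg (7.81 to 7.91) and 440 mg/kg (7.54 to 7.87).

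In the fit of groups or dose steps alone, with all arrays, Eng, Vwf and Lyve1 were called in none of the comparisons. Eng, the TGF-beta co-receptor endoglin, read 9.79 to 10.10 in vehicle, 9.77 to 10.16 at 440 mg/kg and 9.87 to 10.24 at 881 mg/kg, and its change at 881 mg/kg was 0.090 ± 0.12 (adjusted p = 0.635). Vwf read 6.48 to 6.98 in vehicle, 6.90 to 7.14 at 440 mg/kg and 6.74 to 7.13 at 881 mg/kg, a change at 881 mg/kg of 0.095 ± 0.11 (adjusted p = 0.593). For both genes the arrays of all groups overlapped. Lyve1 read 11.22, 11.15, 10.92, 11.15 and 10.81 in vehicle, 11.12, 10.25 and 9.40 at 440 mg/kg and 11.17, 10.44 and 10.06 at 881 mg/kg. In each of these dosed groups 1 Lyve1 array lay inside the vehicle range and the others below it, and the changes were -0.79 ± 0.34 at 440 mg/kg (adjusted p = 0.143) and -0.49 ± 0.34 at 881 mg/kg (adjusted p = 0.321). Leaving out single arrays moved the Lyve1 change between -1.23 and -0.36 at 440 mg/kg and between -0.80 and -0.24 at 881 mg/kg. Lyve1 was called at 440 mg/kg without replicate 1 of that group (-1.23, adjusted p = 0.0307) and with the replicate number as a block (-0.84, 0.0245).

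**Figure D2:**
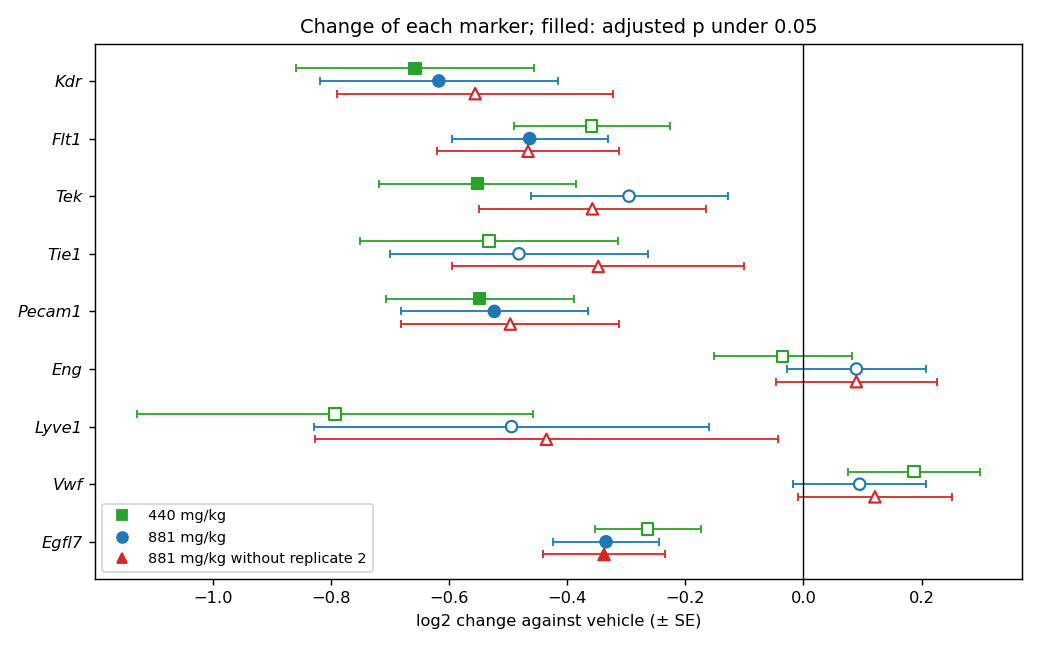
Log2 change against vehicle (horizontal axis, bars SE) of the 9 members (vertical axis) at 440 mg/kg, at 881 mg/kg and at 881 mg/kg without replicate 2; filled symbols have an adjusted p under 0.05. At 881 mg/kg 4 symbols are filled, at 440 mg/kg 3, and without replicate 2 only that of Egfl7, where Kdr measured -0.56, Flt1 -0.47 and Pecam1 -0.50.

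Without 881 mg/kg replicate 2, 1 of 9 members fell, Egfl7, against 3.93% of all genes. The median change of the 9 members was then -0.36, against -0.46 with the array, and over all genes it was -0.0068 and 0.00072. That array's Kdr, Flt1 and Pecam1 values lay between those of replicates 1 and 3, and Tie1 was lowest on it. The part of RNA quality in the Kdr, Flt1 and Pecam1 calls was not tested beyond this and the beta-actin covariate. With that covariate Flt1 (-0.44, adjusted p = 0.0421) and Egfl7 (-0.29, 0.0388) were called at 881 mg/kg, and Kdr (-0.49, 0.117) and Pecam1 (-0.48, 0.0628) were not. With each array centred on its median, 4 members fell at 881 mg/kg against 9.46% of all genes. Of all genes called at 881 mg/kg, 1810 rose and 957 fell, or 1490 and 1345 after centring.

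At 440 mg/kg the median change of the members was -0.53, and -0.0016 over all genes. The 3 calls there rested on most arrays of both groups. Limma called 0 members without vehicle replicates 1, 2 or 4, or without 440 mg/kg replicates 2 or 3 (3 to 7 members had an unadjusted p under 0.05, as did 20.1% to 23.3% of all genes). It called 1 without vehicle replicate 3, and 6 without 440 mg/kg replicate 1. Over the 8 arrays left out in turn, limma called 867 to 1434 of all 14217 genes, in either direction. Separation was counted on the probe set of highest mean. All dosed arrays lay below all vehicle arrays for Flt1, Tek, Pecam1 and Egfl7 at 440 mg/kg (8.40% of all genes) and for Flt1, Pecam1 and Egfl7 at 881 mg/kg (8.31%, and 13.3% without replicate 2, when the same 3 members separated). On these probe sets no member lay above all vehicle arrays in any group. The share of all genes that did was 9.33% at 55 mg/kg, 7.62% at 110 mg/kg, 7.95% at 220 mg/kg, 12.8% at 440 mg/kg and 13.4% at 881 mg/kg. Kdr's second probe set did so at 110 mg/kg (lowest 5.67), 220 mg/kg (5.63) and 881 mg/kg (5.63), the highest vehicle array reading 5.62. The comparisons at 440 and 881 mg/kg share the vehicle arrays.

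Comparing 881 mg/kg directly with 440 mg/kg, limma called 0 of 9 members at an adjusted p under 0.05 and 0 at an unadjusted p under 0.05, where 0.260% and 10.6% of all genes passed. Differences lay between -0.10 (Flt1) and 0.30 (Lyve1), with standard errors of 0.10 to 0.37, and their median was 0.040. Tek measured 0.26 ± 0.19 (adjusted p = 0.706), with means of 8.40 ± 0.24 at 881 mg/kg and 8.15 ± 0.33 at 440 mg/kg (SD, n = 3 each). With the replicate number as a block, which pairs these arrays, the standard errors were 0.083 to 0.22. Limma again called 0 members, where 0.267% of all genes were called. At an unadjusted p under 0.05 there were 0 members, and 11.5% of all genes passed. The Tek difference was then 0.26 ± 0.12 (adjusted p = 0.451). Among all genes 19 rose and 18 fell, 18 and 28 after centring, and without 881 mg/kg replicate 2 limma called 114 (0.802%), with 0 members among them.

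At the 3 lower doses limma called 0 of 9 members in each comparison, where 2.81% of all genes were called at 55 mg/kg, 3.61% at 110 mg/kg and 3.43% at 220 mg/kg. At an unadjusted p under 0.05 there were 3 members at 55 mg/kg (Egfl7 lower, Eng and Vwf higher), 0 at 110 mg/kg and 1 at 220 mg/kg (Egfl7, lower), where 15.9%, 16.7% and 16.6% of all genes passed. The median change of the members was -0.086 at 55 mg/kg, -0.21 at 110 mg/kg and -0.20 at 220 mg/kg, and 7 of 9 were below 0 at each of these doses, the exceptions being Eng and Vwf. On the probe set of highest mean, Egfl7 lay below all vehicle arrays at 55 mg/kg (4.26% of all genes did). No member did at 110 mg/kg (5.28%), and Flt1 and Egfl7 did at 220 mg/kg (5.02%). Of all genes called, 275 rose and 125 fell at 55 mg/kg, or 204 and 153 after centring, and 336 rose and 177 fell at 110 mg/kg, or 286 and 231.

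Fitted against the dose step, counted 0 for vehicle to 5 for 881 mg/kg, Kdr, Flt1, Tek, Tie1, Pecam1 and Egfl7 fell. Kdr changed by -0.13 ± 0.033 per step (SE, adjusted p = 0.00573), Pecam1 by -0.11 ± 0.026 (0.00420), Flt1 by -0.086 ± 0.021 (0.00565) and Egfl7 by -0.059 ± 0.017 (0.0163). Tek (-0.085 ± 0.029, adjusted p = 0.0362) and Tie1 (-0.10 ± 0.036, 0.0402) lay nearest to the threshold. Tek lost its call without vehicle replicates 1, 2 or 4, 55 mg/kg replicate 1, 440 mg/kg replicates 2 or 3 or 881 mg/kg replicate 3 (0.0522 to 0.0760), and Tie1 lost it without vehicle replicates 1 to 4, 55 mg/kg replicate 1, 440 mg/kg replicates 2 or 3 or 881 mg/kg replicates 2 or 3 (0.0510 to 0.105). Kdr, Flt1, Pecam1 and Egfl7 kept theirs whichever of the 20 arrays was left out. The slope of Kdr was -0.059 and not called with the mean of its probe sets (adjusted p = 0.0628), and that of Flt1 was then -0.048 (0.00649). With the beta-actin covariate the slopes of Egfl7 (-0.051, adjusted p = 0.0560), Tek (-0.079, 0.0884) and Tie1 (-0.068, 0.177) were not called. Without 881 mg/kg replicate 2, 5 members fell against 7.19% of all genes. The slopes of Lyve1 (-0.10 ± 0.058, adjusted p = 0.227), Eng (-0.0039 ± 0.021, 0.917) and Vwf (0.010 ± 0.021, 0.769) were not called.

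Probe sets of one gene did not all give the same change. When each of the 31042 probe sets was tested, the second Egfl7 set, which read 7.59, 7.42 and 7.37 at 881 mg/kg and 7.80 to 8.21 in vehicle, fell by 0.51 ± 0.13 (adjusted p = 0.0168), as did the first (-0.33, 0.0197). Kdr's second set read 5.63 to 5.64 at 881 mg/kg and 5.43 to 5.62 in vehicle, a change of 0.12 ± 0.10 that limma did not call (unadjusted p = 0.267), the opposite in sign to its brighter set (-0.62, adjusted p = 0.0507 in this larger table). Flt1's other sets measured -0.075 ± 0.11 (0.720) and -0.18 ± 0.11 (0.318), and Lyve1's second set -0.079 ± 0.22 (0.859). Every value of the other Kdr set and of all 3 Flt1 sets lay under the array medians of 6.31 to 6.39, and RMA compresses low signals. This includes the brightest Flt1 set (highest value 6.30), which by mean signal stood at the 25.4th percentile of genes. The values given above for Kdr, Flt1 and Lyve1 are thus those of 1 probe set each, the one with the highest mean. In this fit 4 of the 14 probe sets fell, both sets of Egfl7 and 1 each of Flt1 and Pecam1, against 4.48% of all probe sets. Without 881 mg/kg replicate 2 limma called 0 of them (2.37% of all probe sets fell), with both Egfl7 sets at an unadjusted p of 0.00451 and 0.00515.

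**Figure D3:**
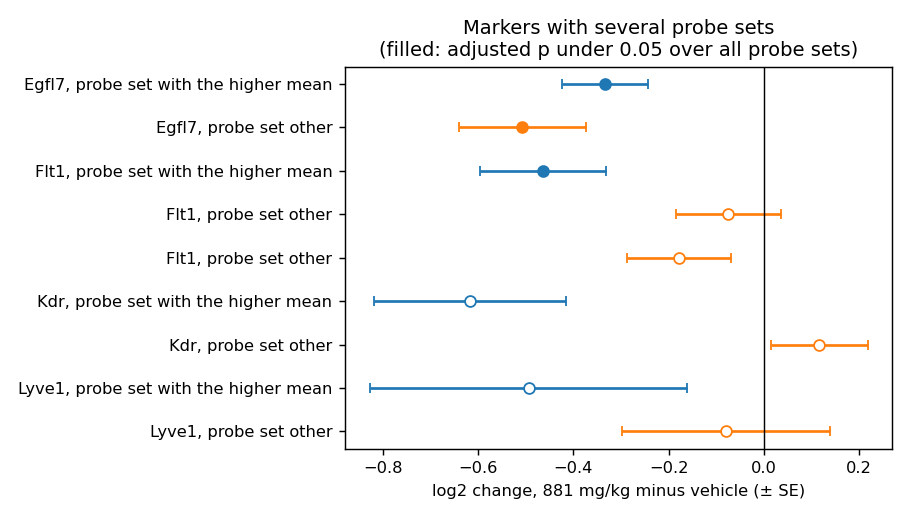
Log2 change at 881 mg/kg minus vehicle (horizontal axis, bars SE) for every probe set of the 4 members with several (vertical axis); blue marks the set with the highest mean, orange the others, and filled points have an adjusted p under 0.05 over all probe sets. Both Egfl7 sets were lower (-0.33 and -0.51), while the second Kdr set lay at 0.12 and the first at -0.62.

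The spread between arrays of one group differed widely among the members. The standard deviation within groups, pooled over the 6 groups, was 0.52 for Lyve1, 0.34 for Tie1, 0.31 for Kdr, 0.25 for Tek and 0.24 for Pecam1, against a median of 0.14 over all genes. Lyve1 stood at the 99.2nd percentile of all genes, Tie1 at the 96.3rd and Kdr at the 95.2nd. Flt1 had 0.19, Eng 0.17 and Vwf 0.16, and Egfl7, with 0.12, stood at the 30.0th percentile. Egfl7 and Lyve1 thus mark the ends: a change of -0.33 was called over the smaller spread, and one of -0.49 was not called over the larger.

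**Figure D4:**
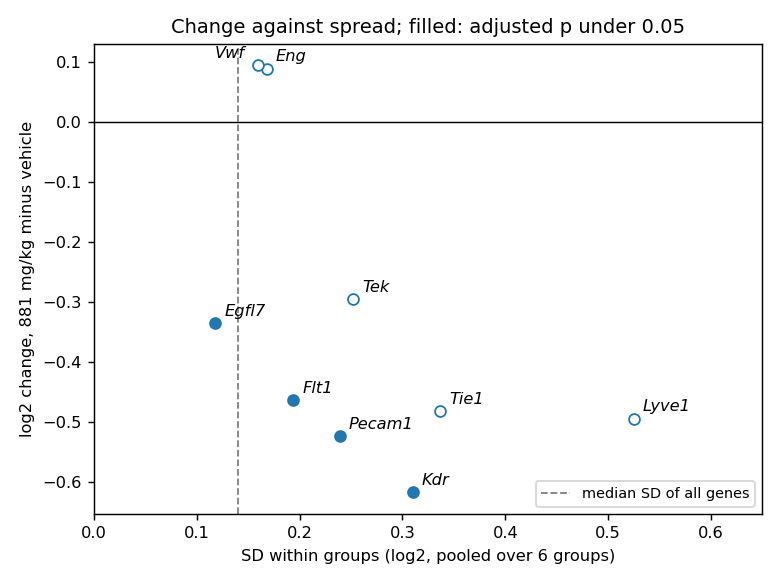
Log2 change at 881 mg/kg minus vehicle (vertical axis) against the standard deviation within groups pooled over the 6 groups (horizontal axis, log2) for the 9 members; filled points have an adjusted p under 0.05 and the dashed line is the median of all genes, 0.14. Egfl7 lies left of that line, and Lyve1, at 0.52, lies farthest right.

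The members' profiles over the 20 arrays were compared as a description, since all points share arrays and dose groups. Pearson's correlation with the mean of the other 8 members was 0.96 for Kdr, 0.91 for Tek, 0.90 for Tie1, 0.87 for Pecam1, 0.87 for Lyve1, 0.82 for Flt1 and 0.67 for Egfl7. It was 0.56 for Eng and 0.10 for Vwf. The 5 other genes whose profiles were most like the mean of the members were Gng11, a G protein gamma subunit (0.98), Mrc1, the mannose receptor of sinusoidal endothelium and macrophages (0.97), Srgn, the proteoglycan serglycin (0.96), Akr1c15, an aldo-keto reductase (0.96), and Cd48, a leukocyte surface protein (0.96). Gng11 fell at 881 mg/kg by 0.62 (adjusted p = 0.0377) and Mrc1 by 0.91 (0.0272), while Srgn (-0.70, 0.0972), Akr1c15 (-0.67, 0.0859) and Cd48 (-0.72, 0.104) were not called.

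Of 14 other measured genes of sinusoidal endothelium, 7 fell at 440 mg/kg and 3 at 881 mg/kg, against 4.28% and 6.73% of all genes, with median changes of -0.61 and -0.42. Without 881 mg/kg replicate 2 limma called 0 of them (median -0.39). Those that fell at 881 mg/kg were Dnase1l3, a secreted nuclease (-0.92 ± 0.27, adjusted p = 0.0220), Mrc1, and Wnt2 (-0.41 ± 0.12, 0.0207), a ligand that sinusoidal cells provide to hepatocytes. The average level of the 14 genes ranged from 8.64 to 8.87 in vehicle, 7.82 to 8.61 at 440 mg/kg and 8.11 to 8.59 at 881 mg/kg. For the 9 markers themselves it ranged from 8.46 to 8.73 in vehicle, 7.93 to 8.52 at 440 mg/kg and 8.04 to 8.54 at 881 mg/kg.

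Of 32 other measured vascular endothelial genes, 8 fell at 440 mg/kg, 6 at 881 mg/kg and 2 at 881 mg/kg without replicate 2 (4.28%, 6.73% and 3.93% of all genes), with medians of -0.37, -0.20 and -0.19. Those that fell at 881 mg/kg included the endothelial transcription factors Sox18 (-0.60 ± 0.14, adjusted p = 0.00480), Sox7 (-0.55 ± 0.17, 0.0282) and Lmo2 (-0.46 ± 0.15, 0.0448) and the anticoagulant receptor Thbd (-0.57 ± 0.17, 0.0249). Sox18 kept its call without that array (-0.50, 0.0383), and Sox7, Lmo2 and Thbd lost theirs (0.0834, 0.165 and 0.0777).

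Of 23 measured ligands, partners and downstream genes of the members, 3 fell and 1 rose at 881 mg/kg, where 6.73% of all genes fell and 12.7% rose, and 2 fell at 440 mg/kg (4.28% of all genes). Vegfc, a ligand of Kdr and of the lymphatic receptor Flt4, rose (0.40 ± 0.10, adjusted p = 0.00984), and kept its call without replicate 2 (0.38, 0.0414), when 7.62% of all genes rose. Id3, a target of BMP signalling, fell (-1.16 ± 0.38, 0.0400), as did Tgfb1 (-0.50 ± 0.15, 0.0243), which encodes a ligand bound with Eng's help, and Hey1 (-0.49 ± 0.13, 0.0110), a Notch target. These 3 calls were lost without replicate 2 (Id3 -0.41, adjusted p = 0.353; Tgfb1 -0.31, 0.195; Hey1 -0.40, 0.0755).

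Markers of other liver cells are given beside the endothelial ones, at 881 mg/kg with all arrays (6.73% of all genes fell and 12.7% rose) and without replicate 2 (3.93% and 7.62%). Of 11 measured markers of Kupffer cells and macrophages, 8 fell, and 4 without replicate 2; their average level was 8.89 to 9.48 at 881 mg/kg and 9.60 to 10.0 in vehicle. The 4 with the largest changes were the complement genes C1qb (-1.13 ± 0.31, adjusted p = 0.0166), C1qc (-0.90 ± 0.22, 0.00813) and C1qa (-0.88 ± 0.19, 0.00311) and the Kupffer cell lectin Clec4f (-0.78 ± 0.16, 0.00282). Without replicate 2, C1qa and Clec4f kept their calls and C1qb (-0.70, adjusted p = 0.152) and C1qc (-0.70, 0.0689) lost theirs.

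Of 17 stellate cell and fibroblast markers, 9 fell at 881 mg/kg, and 4 without replicate 2, with average levels of 7.01 to 7.33 at 881 mg/kg and 7.34 to 7.71 in vehicle. The largest changes were those of the collagens Col3a1 (-0.91 ± 0.20, adjusted p = 0.00369) and Col1a2 (-0.83 ± 0.24, 0.0222), the matrix protein Ecm1 (-0.89 ± 0.16, 0.000908) and Lrat, which esterifies retinol for storage (-0.77 ± 0.19, 0.00914). Col3a1 and Ecm1 kept their calls without replicate 2, and Col1a2 (-0.44, adjusted p = 0.205) and Lrat (-0.64, 0.0647) lost theirs. Of 13 hepatocyte markers, Apoa1, the main protein of HDL, rose (0.34, adjusted p = 0.00222), and the urea cycle enzyme Cps1 (-0.19, 0.0426) and the protease inhibitor Serpina1 (-0.16, 0.0470) fell. Without replicate 2, 1 rose and 0 fell by limma, Cps1 and Serpina1 then having adjusted p = 0.155 and 0.143. With all arrays the average level of the 13 was 13.6 to 13.8 at 881 mg/kg and 13.8 in vehicle.

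Of 12 lymphocyte markers 3 fell, and 1 without replicate 2: the T cell receptor chain Cd3d (-0.31, adjusted p = 0.0200) kept its call, and the B cell genes Ms4a1 (-0.41, 0.0143) and Cd79b (-0.26, 0.0280) lost theirs (0.0531 and 0.118). Of 8 blood cell markers 3 fell, and 2 without replicate 2. The red cell genes Hbb, a globin chain (-2.23, adjusted p = 0.000347), and Alas2, an enzyme of haem synthesis (-1.75, 0.000391), kept their calls, and the platelet integrin Itga2b (-0.27, 0.0101) lost its call (0.0687). Of 8 bile duct markers 1 rose with and without that array, the epithelial adhesion gene Epcam (0.86, adjusted p = 0.000369). The part of these other cells in the endothelial values was not tested.

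**Figure D5:**
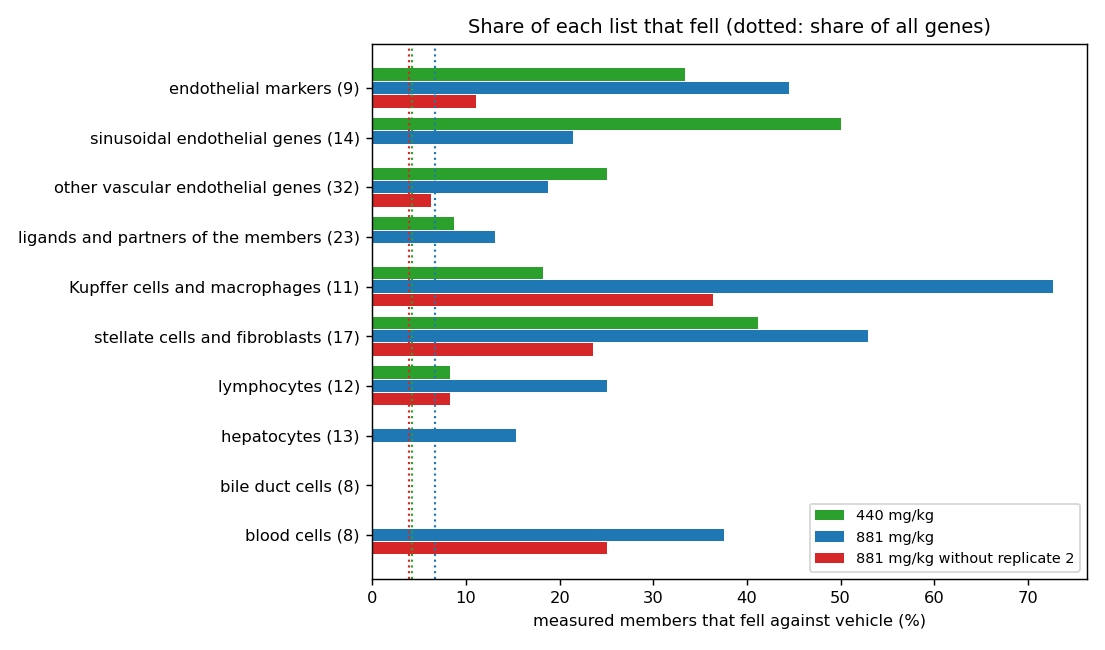
Share of the measured members of each list (number measured in brackets) that fell against vehicle (horizontal axis, percent) at 440 mg/kg, at 881 mg/kg and at 881 mg/kg without replicate 2; a missing bar is a share of 0, and dotted lines are the shares of all genes, 4.28%, 6.73% and 3.93%. The bar of the endothelial markers is shorter without replicate 2 (1 of 9) than with it (4 of 9).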

How the data were processed

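Affymetrix arrays measured liver RNA in 20 samples. The authors deposited 1 log2 value per probe set and array, made with RMA per the submitters' processing notes; neither its version nor scan dates were used here. RMA brings arrays to one distribution, which hides differences in total RNA and compresses low signals. That the scale is log2 was read from the values. No pair of arrays shared more than 0.0226% of values.

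Of 31099 probe sets, 57 controls were set aside. GEO's platform annotation named 1 gene for 20826 of the rest, several for 436 and none for 9780. Names came from that annotation, and 20758 gene IDs matched RefSeq (GRCr8). For each of 14217 genes the probe set of highest mean was taken. Group means were compared in 1 limma 3.58.1 model of all 6 groups (R 4.3.3, lmFit and eBayes, two-sided), and dose steps in a model with 1 numeric term; Benjamini-Hochberg adjustment ran over all genes, with a threshold of 0.05 and no filter on signal. Precision is limited by how many arrays there are. The model was tested on simulated data. Tables and figures were made in matplotlib 3.10.9, NumPy 2.4.6 and pandas 2.3.3 under Python 3.11.15.

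The members and gene lists were chosen with earlier results of these data known. The text names all members in the comparisons, up to 4 called genes with the largest change at 881 mg/kg from each other list, and the 5 genes most correlated with the members' mean. Alternatives were arrays centred on their medians, the genes of lowest mean signal left out, the mean of a gene's probe sets, only the groups compared, the replicate number as a block, the 3' minus 5' difference of beta-actin as a covariate, and each array left out. Between 881 and 440 mg/kg arrays with the same number deviated together (lowest correlation 0.22 over 3 pairs, threshold 0.1), a pairing seen in the values and not stated in the labels. The same rule was met between 881 mg/kg and 55, 110 and 220 mg/kg and between 440 and 110 mg/kg.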

Additional observations from a re-analysis of the deposited data

How the results depend on the processing

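At 440 mg/kg, 881 mg/kg and along the dose steps, members kept their direction under all alternatives run except Eng and Vwf. The change of Eng at 440 mg/kg was 0.0093 with the replicate block, 0.0024 with the beta-actin covariate and -0.15 to 0.044 when single arrays were left out, against -0.035 as reported. Its change at 881 mg/kg ranged from -0.0032 to 0.18 when single arrays were left out. Its slope was 0.0078 per step with the covariate and -0.015 to 0.0045 over left-out arrays. For Vwf these ranges were -0.015 to 0.18 at 881 mg/kg and -0.0066 to 0.021 per step. At 440 mg/kg limma called 5 members with only the groups compared and 1 with the covariate. At an unadjusted p under 0.05, a looser threshold than that of these calls, 27.8% and 26.6% of all genes passed there. The replicate block called 5 (4.30% of all genes fell), and left-out arrays gave 0 to 6. At 881 mg/kg limma called 2 with the covariate and 1 to 4 over left-out arrays, and along the dose steps 3 and 4 to 6. With the covariate 30.5% of all genes had an unadjusted p under 0.05 in each of these, again a looser threshold than that of the calls. Of the 14 probe sets, 0 to 5 were called over left-out arrays. At 881 mg/kg 4.48% of all probe sets fell with all arrays and 2.37% without 881 mg/kg replicate 2. Counts of all genes over left-out arrays are given below.

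Over all genes, with the covariate, 678 genes were called at 55 mg/kg (400 as reported), 780 at 110 mg/kg (513) and 68 between 881 and 440 mg/kg (37). Fitting only the groups compared gave 1795 at 881 mg/kg (2767) and 0 between 881 and 440 mg/kg, where limma left 976 at an unadjusted p under 0.05; the cause was not tested. Left-out arrays gave 127 to 391 genes at 55 mg/kg, 212 to 481 at 110 mg/kg, 204 to 457 at 220 mg/kg, 867 to 1434 at 440 mg/kg, 1643 to 2725 at 881 mg/kg, 1 to 114 between 881 and 440 mg/kg and 2415 to 3117 along the dose steps.

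Between dosed groups and vehicle, arrays of the same number did not meet the pairing rule, the lowest correlations being -0.12 to 0.043. Those of replicate 1 with vehicle replicate 1 were 0.060 to 0.25, so the rule does not show that pairing is absent. Over all groups 15 of 18 arrays correlated best on average with their own number. The replicate block called 322 genes at 220 mg/kg (488). It added Tie1 (adjusted p = 0.00606) and Lyve1 (0.0245) at 440 mg/kg and Tie1 (0.00653) at 881 mg/kg. At 440 mg/kg it kept the calls of Kdr, Tek and Pecam1 (0.00204, 0.00665 and 0.00956). At 881 mg/kg it kept those of Kdr, Flt1, Pecam1 and Egfl7 (0.00195, 0.0145, 0.00818 and 0.0207). There 5 of 9 members fell with the block, against 6.60% of all genes. Between 881 and 440 mg/kg, where the numbers pair the arrays, the block changed no member's call and called 38 genes.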

Other observations

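Arrays carrying the same replicate number in the labels read alike for most endothelial markers. This was noticed in the values, and what the numbers stand for is not given in the sources used here. How many other genes are ordered in the same way was not counted. Over all genes 15 of 18 arrays correlated best on average with their own number, so the pattern is not limited to these markers. In all 5 dosed groups the array numbered 1 read highest for Kdr, Tek, Tie1, Eng and Lyve1. Among vehicle replicates 1 to 3, number 1 read highest for these genes and Flt1, and not for Pecam1, Vwf and Egfl7. The array numbered 3 read lowest in 5 of 5 groups for Kdr and Lyve1, in 4 of 5 for Tek, Flt1, Pecam1 and Egfl7, and in 3 of 5 for Tie1, Eng and Vwf. The difference between the arrays numbered 3 and 1 lay between -1.73 and -0.35 for Lyve1 and between -0.89 and -0.19 for Kdr, and between -0.39 and 0.24 for Vwf.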
